A study of Mus musculus with 8 samples.

Results

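The fragments of leucine tRNAs were the sequences that the table names Leu-AAG, Leu-CAA, Leu-CAG, Leu-TAA or Leu-TAG, and they numbered 181 of the 2226 tRNA-derived fragments (tRFs) listed. They were chosen by name alone, whatever their level. Small RNA had been sequenced from β-cells sorted by flow cytometry out of the dispersed islets of male mice, 8 weeks old, with islets of several animals pooled for a preparation. There were 4 libraries from db/db mice, which lack a working leptin receptor and become obese and diabetic, and 4 from lean wild type mice. By the study's account, a wild type pool took in more animals than a db/db pool. Both genotypes had the background BKS.Cg, and db/db mice carried the Lepr db mutation. The values were counts of unique molecules of 16 to 30 nt, and the table lists no messenger RNA, so the sorted cell type could not be checked against β-cell markers.

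Leucine tRNAs carry leucine to the ribosome, and each is named for the anticodon with which it reads codons. Like serine and selenocysteine tRNAs they have a long variable arm, an extra stem between the anticodon arm and the T arm. In every tRNA the 5′ end pairs with the 3′ end in the acceptor stem, and the 3′ end is completed by the bases CCA, which are added after transcription and receive the amino acid. Nucleases cut mature tRNAs into 5′ fragments, which hold a strand of the acceptor stem and the D arm, and 3′ fragments, which hold the T arm and the CCA. Isodecoders are tRNAs with the same anticodon and a different body.

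The 8 libraries held between 582165 and 2946290 tRF counts, of which 12425 to 62876 were leucine counts, and db/db 3 was the deepest. The precision of every value was limited by these counts and by n = 4 preparations per genotype. Leu-AAG accounted for 81 sequences, Leu-CAA for 43, Leu-CAG for 33, Leu-TAA for 14 and Leu-TAG for 10. Of these, 68 ended in CCA and were counted as 3′ fragments, 50 had the commonest start among the sequences of their anticodon and were counted as 5′ fragments, and the other 63 were internal. Where values of single libraries are given, they follow the order of replicates 1 to 4. In the RefSeq annotation for GRCm38.p6, the mouse build that the study used, there are 25 leucine tRNA genes, 10 for Leu-CAG, 5 for Leu-AAG, 4 for Leu-CAA, 3 for Leu-TAA and 3 for Leu-TAG. The Leu-CAA genes, of 105 to 107 bases, were longer than the others, of 82 or 83 bases. On chromosome 1, 5 of the Leu-CAG genes lie between positions 171038614 and 171101920. Gene sequences were not used here, so fragments were not assigned to single genes. None of the fragments was found in the 22 mitochondrial tRNA transcripts of the annotation.

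The 5′ ends fell into 2 types, and the fragments of 25 nt show how the anticodons differ there. The letters are those of the deposited table, read 5′ to 3′, and capitals mark the positions at which these 5 sequences are not all the same.
Leu-AAG: gGTagCGtggccgagCggtctaagg
Leu-AAG, second form: gGTagTGtggccgagCggtctaagg
Leu-TAG: gGTagCGtggccgagTggtctaagg
Leu-CAG: gTCagGAtggccgagCggtctaagg
Leu-CAA: gTCagGAtggccgagTggtctaagg
Counted from base 1 at the 5′ end, Leu-TAG differed from Leu-AAG by C16T alone, and Leu-CAA differed from Leu-CAG by C16T alone. Leu-AAG and Leu-CAG differed by G2T, T3C, C6G and G7A, all of them in the 7 bases of the acceptor stem. A fragment of 16 nt, the shortest length listed, therefore told Leu-AAG from Leu-TAG, or Leu-CAG from Leu-CAA, by its last base only. The second form of Leu-AAG differed from the common form by C6T.

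The 3′ fragments of 24 nt begin in the T arm and end in CCA. Capitals again mark the positions that vary within the set.
Leu-AAG: gttcgaaTcccacCGctgCCacca
Leu-AAG, second form: gttcgaaTcccacCActgCCacca
Leu-CAA: gttcgaaTcccacTTctgACacca
Leu-CAG: gttcgaaTcccacTCctgACacca
Leu-TAA: gttcgaaCcccacTCctgGTacca
The second form of Leu-AAG differed from the common form by G15A, and Leu-CAG differed from Leu-CAA by T15C. No 3′ fragment was named Leu-TAG. The 5′ ends of Leu-TAG and Leu-AAG were the same over the acceptor stem and the table gives each sequence a single name, so a 3′ sequence common to both tRNAs would stand under 1 name only. Whether Leu-AAG 3′ counts include Leu-TAG was not tested. Only 1 sequence had what may be read as a 5′ end of Leu-TAA (accaggatggccgagtggttaagg), at 1.68 to 16.2 CPM, that is, counts per 1e6 tRF counts after TMM scaling, and it was grouped as internal.

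Leu-AAG supplied between 45.8% and 67.5% of leucine counts in a library. Its 3′ family, the sum of its 27 3′ sequences, stood at 6313, 4128, 7197 and 14003 CPM in wild type and at 7415, 9332, 14249 and 7941 CPM in db/db. Its 5′ family stood at 6005, 2435, 8822 and 4865 CPM in wild type and at 4191, 5434, 4129 and 4232 CPM in db/db. In both families the genotypes overlapped. The 3′ families of Leu-CAA and Leu-CAG had wild type means of 2515 ± 755 and 1592 ± 524 CPM (SD, n = 4), and their 5′ families 444 ± 58.8 and 2720.3 ± 372 CPM. Leu-CAG thus had more 5′ than 3′ counts in the wild type, and Leu-CAA fewer. Leu-TAA was mostly 3′, at 267 ± 116 CPM, and Leu-TAG was all 5′, at 708 ± 195 CPM.

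**Figure D1:**
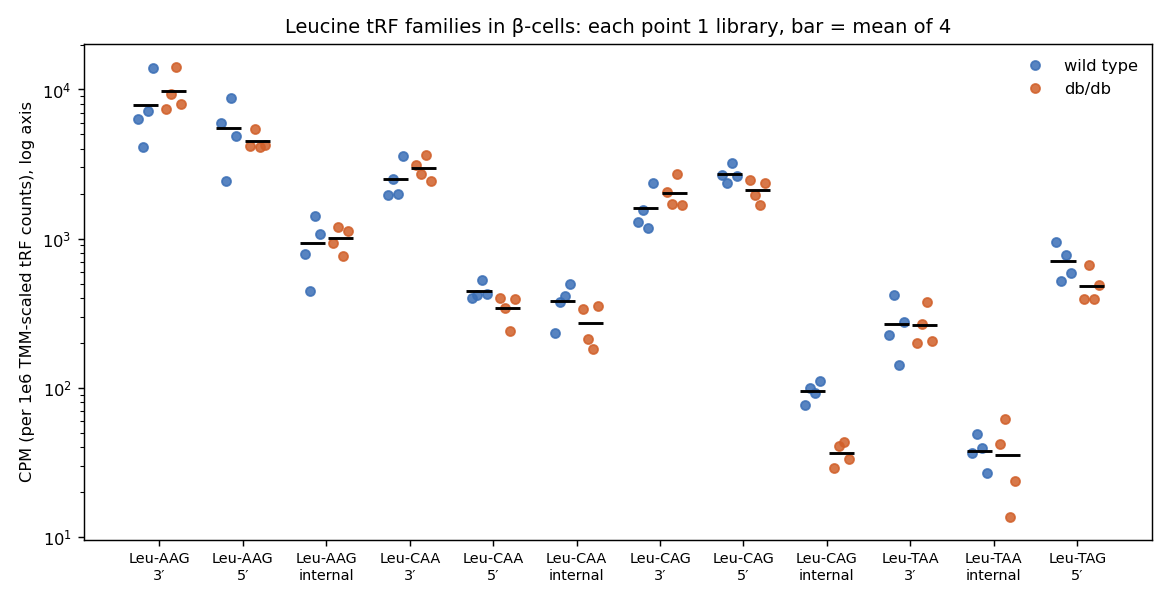
CPM of the 12 leucine tRF families on a log axis, with 1 point per library, wild type in blue and db/db in orange, and a bar at the mean of 4 libraries. The genotypes overlap in 10 families, and all wild type points lie above all db/db points in the internal Leu-CAG family and, narrowly (403 against 399 CPM), in the Leu-CAA 5′ family.

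Between the genotypes most of these sums did not differ beyond the spread of the libraries. Of 110 families of all tRNAs that were tested, 19 were called (17.3%), where a call needed more than a 2-fold change and a Benjamini-Hochberg adjusted p below 0.1 by the quasi-likelihood test of edgeR. Of the 12 leucine families 1 was called, the 3 internal sequences of Leu-CAG, at 95.0 ± 14.5 CPM in wild type and 36.6 ± 6.50 CPM in db/db (SD, n = 4 per genotype). The change was −1.37 on the log2 scale (SE 0.315; edgeR, adjusted p = 0.0023). One of its sequences ends just short of CCA. With such sequences as families of their own, the remaining 2 changed by −0.44 and were not called (SE 0.297; edgeR, adjusted p = 0.367). The 5′ families of Leu-AAG, Leu-CAA, Leu-CAG and Leu-TAG had log2 fold changes of −0.30, −0.37, −0.36 and −0.55, and the 3′ families of Leu-AAG, Leu-CAA and Leu-CAG had 0.30, 0.24 and 0.35. None of these was called. Scaling libraries to the totals implied by the deposited RPM moved the median of all 110 families from −0.03 to −0.58. The Leu-TAG 5′ family was then called at −1.11 (SE 0.388; edgeR, adjusted p = 0.0675). The 3 values at the 3′ end turned negative under that scaling. Those of Leu-CAA and Leu-CAG also did when scaled by the deposited log2 values, where that median was −0.67. Per anticodon, 2 of 48 totals were called (4.17%) and 0 of the 5 leucine totals were, by edgeR as by DESeq2. The lowest unadjusted p among the leucine totals was 0.0549, for Leu-TAG, at a log2 fold change of −0.64 (SE 0.312; edgeR, adjusted p = 0.341). Leucine fragments made up 2.31% ± 0.391 of tRF counts in wild type and 2.32% ± 0.274 in db/db (SD, n = 4 each; exact permutation test, two-sided, p = 0.943).

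Single sequences did change, some higher and some lower in db/db. Of the 1832 tested sequences of all tRNAs 275 were called (15%), 102 of them higher in db/db (5.57%) and 173 lower (9.44%). Of the 181 leucine sequences 153 had enough counts for a test, and 18 were called, 9 higher and 9 lower. The share of leucine sequences called was thus near that of all tRNAs. Among the tested leucine sequences 25 had genotypes that did not overlap, beside 314 (17.1%) of all, and these included 16 of the 18 called. The median log2 fold change was −0.13 for leucine and 0.00 for all sequences. The 9 higher sequences were all 3′ fragments of the second form of Leu-AAG. Of the 9 lower ones, 5 ended just short of CCA and 4 were 5′ fragments of Leu-AAG, Leu-CAG and Leu-TAG. The number of higher calls depended on the scaling and on single libraries, with 15 higher and 10 lower without wild type 3 and between 7 and 12 higher when another library was left out. Scaled by the deposited log2 values, which moved the median of all sequences to −0.51, 0 leucine sequences were called higher and 6 lower. With the implied totals, where that median was −0.36, 4 were called higher and 9 lower.

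**Figure D2:**
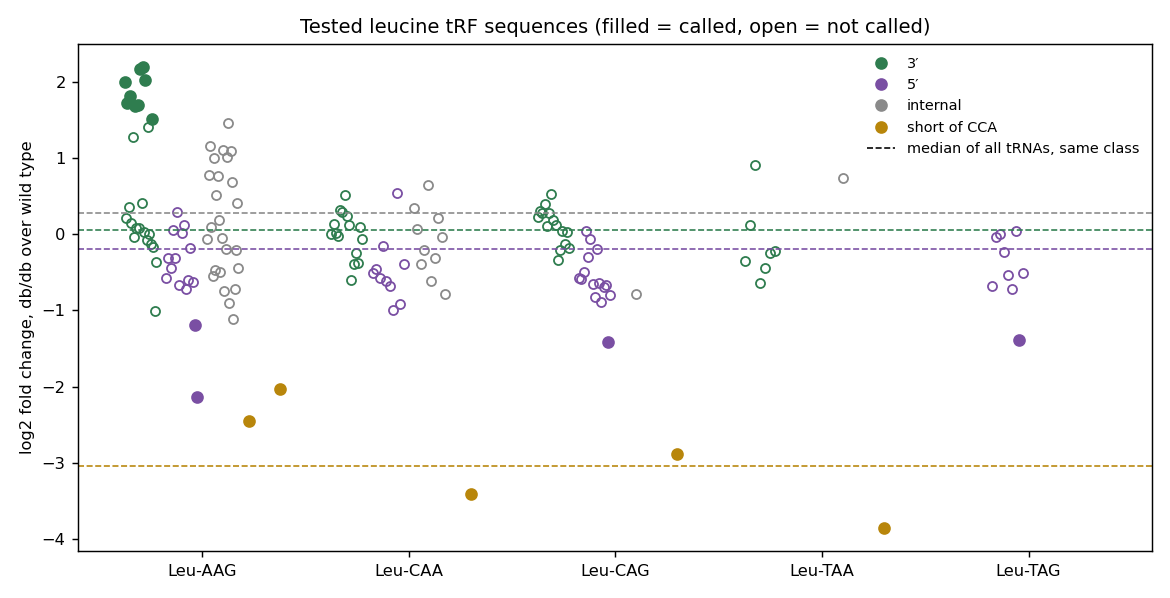
Log2 fold change of db/db over wild type for each of the 153 tested leucine sequences, by anticodon and kind of fragment, with filled points for called sequences and dashed lines at the medians of all tRNAs for the same kind (0.05 for 3′, −0.19 for 5′, 0.27 for internal and −3.04 for ends short of CCA). The 9 filled green points above 1 are the second form of Leu-AAG, and its 5′ fragments stand among the internal points because they begin with another sequence than the common form.

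The second form of Leu-AAG was a less abundant sequence under the same name, and it took a larger part of Leu-AAG fragments in db/db β-cells, at both ends of the tRNA. It was noticed after the calls had been seen, so its shares are given as descriptions. Its 3′ fragment of 24 nt, printed above, stood at 30.2, 17.6, 21.8 and 34.0 CPM in wild type and at 74.4, 121, 151 and 79.0 CPM in db/db. All db/db libraries lay above all wild type libraries, with a log2 fold change of 2.02 (SE 0.417; edgeR, adjusted p = 0.00101). The common form of the same length, which differs in 1 base, stood at 1457, 743, 1110.2 and 1697 CPM in wild type and at 742, 1318, 1728 and 973 CPM in db/db. Here the genotypes overlapped, at a log2 fold change of −0.07 (SE 0.361; edgeR, adjusted p = 0.93).

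The same held at other lengths. Of the 13 3′ sequences of the second form 11 were tested and 9 called higher, with a median log2 fold change of 1.73 and a range of 1.28 to 2.19. Some of the 11 passed the count filter only with their db/db libraries, such as that of 23 nt, with 4, 5, 2 and 16 counts in wild type. The number called and the median are therefore given as descriptions. The fragment of 20 nt lost its call without wild type 1 or wild type 2, and that of 27 nt without wild type 2. Of the 14 3′ sequences of the common form all were tested and 0 were called by edgeR or by DESeq2, with a median of 0.01, and 1 had an unadjusted p below 0.05 (edgeR). Among 3′ sequences of all tRNAs 68 of 894 were called higher (7.61%), and 128 had an unadjusted p below 0.05 (edgeR). The second form made up 2.46%, 2.77%, 2.17% and 2.59% of the Leu-AAG 3′ counts in wild type, and 9.23%, 8.69%, 7.03% and 7.10% in db/db. The db/db mean of 8.01% ± 1.12 was 3.21 times the wild type mean of 2.50% ± 0.252 (SD, n = 4 per genotype). Such a share is formed within a library and does not depend on the scaling between libraries. It rested on 718 of the second form's counts in wild type and 3907 in db/db. At each of the 13 lengths where both forms were listed the db/db shares lay above the wild type shares without overlap, although lengths of 1 tRNA in the same libraries are not independent. In the 11 pairs with both members tested, the second form's log2 fold change was 1.32 to 2.16 above that of the common form. As a background, 245 pairs of tested sequences outside Leu-AAG, of 1 isoacceptor and kind, of equal length and 1 base apart, had a median absolute difference of 0.557, which exceeded 1 in 53 of them, and their shares did not overlap between the genotypes in 80 pairs (32.7%). The Leu-AAG pairs had been chosen with their calls known, so nothing is read from this contrast.

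At the 5′ end the direction was the same and the sequences were fewer. The 5′ fragments of the second form made up 3.32%, 4.44%, 3.54% and 4.33% of Leu-AAG 5′ counts in wild type and 11.3%, 9.38%, 8.31% and 9.27% in db/db. No db/db library overlapped with the wild type, and the db/db mean of 9.57% ± 1.26 was 2.45 times the wild type mean of 3.91% ± 0.559 (SD, n = 4 per genotype). All 9 sequences were tested and 0 were called by edgeR, with log2 fold changes between 0.68 and 1.45. Of the 9, 4 had an unadjusted p below 0.05 (edgeR), beside 390 of the 1832 tested sequences of all tRNAs. DESeq2 called 2 higher, and its count over all sequences is not given here. The fragment of 25 nt came closest, at 76.5, 23, 73.9 and 36.3 CPM in wild type and at 112, 134, 79.9 and 117 CPM in db/db. Its genotypes did not overlap, and its log2 fold change of 1.09 missed the threshold (SE 0.418; edgeR, adjusted p = 0.104), although it was called in 9 of 17 alternatives. The common form of that length had means of 1253 and 759.6 CPM in wild type and db/db without a call, and the difference between the forms was 1.81 on the log2 scale. In 7 of the 9 pairs of equal length the db/db shares lay above the wild type shares without overlap. The background of 32.7% given above held only pairs of 1 kind and counted both directions. These 5′ pairs cross kinds and were chosen after seeing the data, so nothing is read from a contrast with it.

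**Figure D3:**
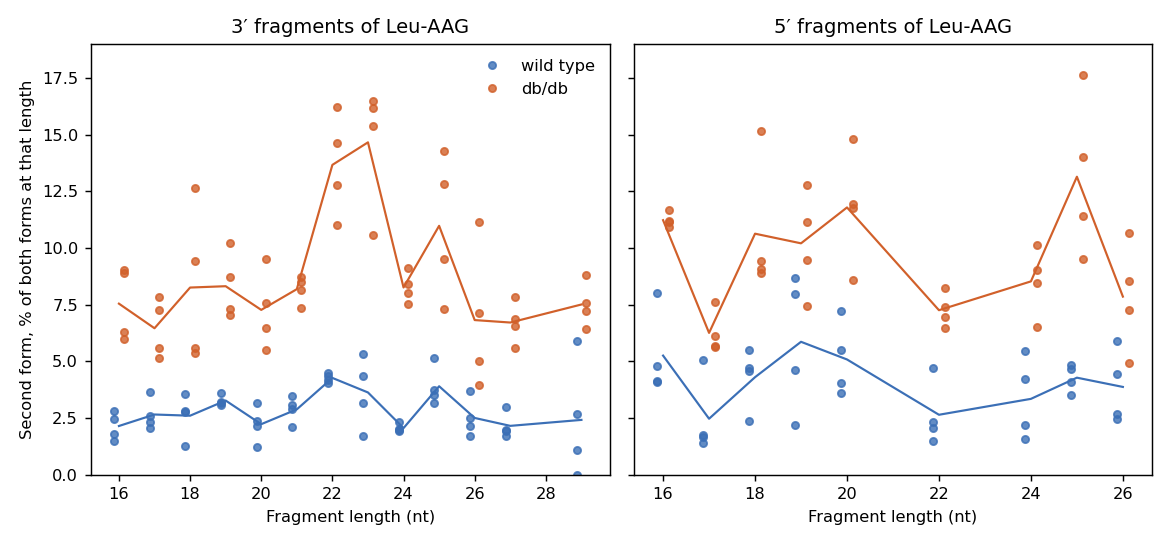
Share of the second form among both forms of Leu-AAG at each fragment length, 3′ fragments on the left and 5′ fragments on the right, with 1 point per library and a line through the means of 4 wild type (blue) or 4 db/db (orange) libraries. The orange points lie above all blue points at 13 of 13 lengths on the left and 7 of 9 on the right.

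The sequences of the second form match each other across the acceptor stem. Of the 7 facing positions, the common 5′ and 3′ ends gave 6 Watson-Crick pairs and 1 G-T pair, and the second 5′ and 3′ ends gave the same numbers, with T facing A at position 6 in place of C facing G. With a second 5′ end and a common 3′ end the count was 5 Watson-Crick and 2 G-T pairs, and with a common 5′ end and a second 3′ end 1 position was left unpaired. These counts come from the letters of the fragments alone. Which of the 5 Leu-AAG genes encodes which form was not analysed here.

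Fragments that ended just short of the complete CCA were lower in db/db β-cells for each of the 4 anticodons with 3′ fragments. The sequences that show it begin at the same base as an abundant 3′ fragment and lack only the final A. Capitals mark the bases of CCA that are present.
Leu-AAG, complete: tcccaccgctgccaCCA
Leu-AAG, 1 base short: tcccaccgctgccaCC
Leu-CAA, complete: tcccacttctgacaCCA
Leu-CAA, 1 base short: tcccacttctgacaCC
Leu-CAG, complete: tcccactcctgacaCCA
Leu-CAG, 1 base short: tcccactcctgacaCC
Leu-TAA, complete: ccccactcctggtaCCA
Leu-TAA, 1 base short: ccccactcctggtaCC
For Leu-CAA the complete fragment stood at 681, 667, 629.8 and 822 CPM in wild type and at 781, 708, 974 and 602 CPM in db/db. The genotypes overlapped and the log2 fold change was 0.13 (edgeR, adjusted p = 0.853). The fragment 1 base short stood at 96.1, 234, 151 and 164 CPM in wild type and at 12.6, 21.7, 18.3 and 8.88 CPM in db/db, without overlap, with a log2 fold change of −3.40 (SE 0.437; edgeR, adjusted p = 8.06e-06).

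The other anticodons gave the same pair of results. For Leu-AAG the complete fragment changed by 0.35 without a call (edgeR, adjusted p = 0.638), and the one 1 base short by −2.44 (SE 0.40; edgeR, adjusted p = 0.000104). For Leu-CAG the values were 0.31 without a call (edgeR, adjusted p = 0.652) and −2.88 (SE 0.513; edgeR, adjusted p = 0.000233). For Leu-TAA they were 0.12 without a call (edgeR, adjusted p = 0.893) and −3.85 (SE 0.687; edgeR, adjusted p = 0.00024). The short Leu-TAA fragment rested on few counts, 10, 27, 13 and 19 in wild type and 1, 0, 5 and 2 in db/db. The short Leu-TAA and Leu-CAG fragments passed the count filter through their wild type libraries only, so their calls are given as descriptions. In all, 6 leucine sequences ended 1 to 3 bases short of CCA, 5 of them were tested and all 5 were called lower. Of 168 tested sequences of this kind from all tRNAs 144 were called lower (85.7%), so that leucine followed the background here. Summed by anticodon, the ends short of CCA changed by −2.06 for Leu-AAG, −3.19 for Leu-CAA, −2.63 for Leu-CAG and −3.56 for Leu-TAA on the log2 scale, and these 4 were among the 27 of 130 families called (20.8%).

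Within single libraries, ends short of CCA made up 2.82%, 4.56%, 3.98% and 2.95% of the counts at leucine 3′ ends in wild type and 0.51%, 0.479%, 0.436% and 0.509% in db/db. The lowest wild type library was above the highest db/db library, and the wild type mean of 3.58% ± 0.837 was 7.40 times the db/db mean of 0.483% ± 0.0349 (SD, n = 4 per genotype). An exact two-sided permutation test gave p = 0.0286, the smallest that 4 against 4 libraries allow, and 0.257 after adjustment over 9 tests of shares, an adjustment that no single share could pass. In wild type the mean share was 2.64% ± 0.251 for Leu-AAG, 3.29% ± 0.818 for Leu-CAG, 5.76% ± 1.70 for Leu-CAA and 7.90% ± 3.45 for Leu-TAA. Neighbours in this order had overlapping ranges. In db/db all 4 means were between 0.361% and 0.55%.

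The drop did not separate leucine from other tRNAs. All tRNAs other than leucine had 3.01% ± 1.29 in wild type and 0.484% ± 0.0603 in db/db (SD, n = 4 per genotype). The log2 ratio of the leucine share to theirs differed by −0.31 between the genotypes (exact permutation test, p = 0.314). Serine tRNAs, which also have a long variable arm, had 84 sequences ending in CCA and 0 placed short of it among the sequences listed, so they gave no ratio. The table lists a sequence only where 4 or more libraries have 5 or more counts of it.

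**Figure D4:**
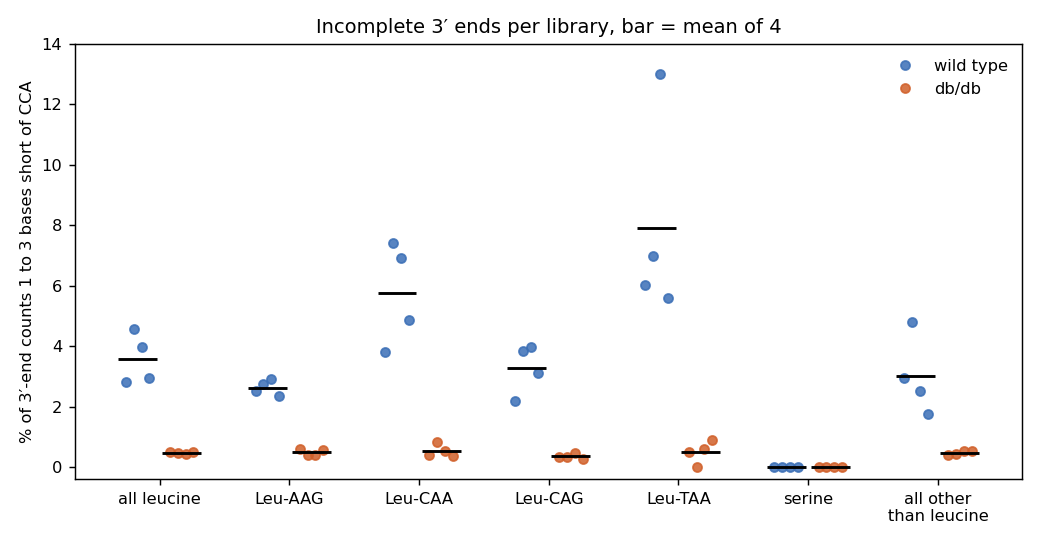
Percentage of 3′-end counts that ended 1 to 3 bases short of CCA, for leucine tRNAs together and by anticodon, for serine tRNAs and for all tRNAs other than leucine, with 1 point per library (wild type blue, db/db orange) and a bar at the mean of 4. Every db/db point is below 1%, and the wild type points of Leu-TAA reach 13%.

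Among 5′ fragments with the commonest start, those called were lower in db/db. They were Leu-AAG and Leu-CAG fragments of 29 or 30 nt and a Leu-TAG fragment of 25 nt. The 9 of the second form of Leu-AAG, grouped as internal, all had values above 0 and are not counted here. Of 49 tested leucine 5′ sequences 0 were called higher and 4 lower, by edgeR as by DESeq2, beside 10 of 268 lower for all tRNAs (3.73%), and 41 had a log2 fold change below 0. The median was −0.57 for leucine and −0.19 for all tRNAs. The Leu-AAG fragment of 30 nt (ggtagcgtggccgagcggtctaaggcgctg) stood at 30.2, 70.4, 43.7 and 45.6 CPM in wild type and at 10.6, 25.3, 6.24 and 4.44 CPM in db/db. The genotypes did not overlap, at a log2 fold change of −2.14 (SE 0.563; edgeR, adjusted p = 0.009). The Leu-AAG fragment of 29 nt, shorter by the last base, changed by −1.19 (SE 0.434; edgeR, adjusted p = 0.0791). The Leu-CAG fragment of 29 nt (gtcaggatggccgagcggtctaaggcgct) stood at 14.2, 35.2, 38.6 and 35.5 CPM in wild type and at 10.6, 12.6, 12.5 and 10.7 CPM in db/db, a log2 change of −1.42 (SE 0.507; edgeR, adjusted p = 0.073). Wild type 1 was close to the db/db libraries. The Leu-CAG fragment of 30 nt was not called, at a log2 fold change of −0.80 (SE 0.441; edgeR, adjusted p = 0.31). Leaving out 1 library ended the call at 29 nt for Leu-CAG in 6 of 7 tested cases, all but wild type 1, and without wild type 4 the fragment had too few counts for the test. For Leu-AAG it ended the call in 5 of 8 cases, all but wild type 2, wild type 3 and db/db 2. Over all alternatives the adjusted p reached 0.208 and 0.241 (edgeR or DESeq2), and the fragment of 30 nt was called in every one that could test it.

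The Leu-TAG fragment of 25 nt was the most abundant of the 10 Leu-TAG sequences, with 38.6% of Leu-TAG counts on average over the 8 libraries. It stood at 653, 227, 386 and 221 CPM in wild type and at 87.9, 224, 146 and 111 CPM in db/db. Here db/db 2 reached above the lowest wild type library, and the change was −1.39 on the log2 scale (SE 0.405; edgeR, adjusted p = 0.0206). Without wild type 1, without db/db 4 or with libraries scaled by the deposited log2 values it was not called (edgeR, adjusted p = 0.212, 0.13 and 0.306). Leu-AAG, which differs from it in this stretch by 1 base, had at 25 nt 1801, 468, 2031 and 711 CPM in wild type and 524, 1036, 760.3 and 719 CPM in db/db, and its change of −0.72 was not called (SE 0.415; edgeR, adjusted p = 0.336). The Leu-CAG and Leu-CAA fragments of 25 nt were lower in all 4 db/db libraries than in all 4 wild type libraries, at log2 fold changes of −0.64 and −0.92, without a call (edgeR, adjusted p = 0.264 and 0.115).

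Apart from Leu-TAG at the 5′ end and the ends short of CCA, the most abundant sequence of each anticodon and kind was not called by edgeR. The common Leu-AAG 3′ fragment of 16 nt stood at 1525, 883, 1377 and 1833 CPM in wild type and at 1279, 1531, 2552 and 1169.7 CPM in db/db. The genotypes overlapped, at a log2 fold change of 0.22 (SE 0.354; edgeR, adjusted p = 0.772). The 5′ fragments of 16 nt had log2 fold changes of −0.52 for Leu-CAA (SE 0.36; edgeR, adjusted p = 0.457) and −0.58 for Leu-CAG (SE 0.349; edgeR, adjusted p = 0.372). For Leu-TAA, the 3′ fragment of 24 nt had −0.64 (SE 0.442; edgeR, adjusted p = 0.447).

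Summed over the anticodons, leucine tRNAs had a larger part of their fragments from the 5′ end than other tRNAs. In wild type the 5′ fragments were 47.8%, 37.4%, 51.7% and 28% of leucine counts, and in db/db they were 34.6%, 35.1%, 22.7% and 35.1%. In other tRNAs they were 1.55% to 4.37%, and in serine tRNAs 1.16% to 3.53%. Leucine was higher in 8 of 8 libraries, by a mean of 33.4 percentage points over other tRNAs and 34.3 over serine, each with a p of 0.0078 in an exact sign-flip permutation test over libraries, the smallest it can give. By anticodon the wild type means were 62.1% ± 8.70 for Leu-CAG, 40.4% ± 12 for Leu-AAG and 13.9% ± 3.73 for Leu-CAA (SD, n = 4). In each of the 8 libraries Leu-CAG was above Leu-AAG, and Leu-AAG above Leu-CAA. By the names in the table, the share was 0% for Leu-TAA and 100% for Leu-TAG in every library, so the sum does not describe each anticodon. The bases tggccgag, read on the strand given, were in all 59 leucine 5′ fragments when the second form is counted as 5′, in 24.9% of 5′ fragments of all tRNAs, and in 21 of 262 of those outside leucine. They lie within the starts printed above, each of which is counted here at several lengths, so the 59 are not independent. The 3′ share had a mean of 52.5% ± 11.3 in wild type and 62.3% ± 7.65 in db/db (SD, n = 4 per genotype; exact permutation test, p = 0.2).

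Both ends had preferred lengths. Of the leucine 3′ counts, 19% on average over the 8 libraries were of 16 nt, 18.6% of 17 nt, 11.7% of 24 nt, 9.73% of 21 nt and 8.74% of 27 nt. Of the 5′ counts, second form included, 21.6% were of 16 nt and 20.8% of 25 nt. Fragments of 16 to 19 nt made up 46.6% ± 1.89 of leucine 3′ counts in wild type and 49.1% ± 3.42 in db/db (SD, n = 4 per genotype; exact permutation test, p = 0.286), compared with 18% ± 1.87 and 20.9% ± 2.78 in other tRNAs. The ranges of leucine, 44.7% to 52.9%, and of other tRNAs, 15.4% to 24.4%, did not overlap in any library. Leu-CAA, Leu-CAG and Leu-TAA had the most of their 3′ counts at 17 nt, with 27.2%, 17.7% and 27.8%, and Leu-AAG at 16 nt, with 18.7%. Leu-TAG had the most of its 5′ counts at 25 nt, with 38.6%. For Leu-AAG 5′ counts the lengths of 25 nt and 16 nt were nearly equal, with 19.3% and 19%.

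**Figure D5:**
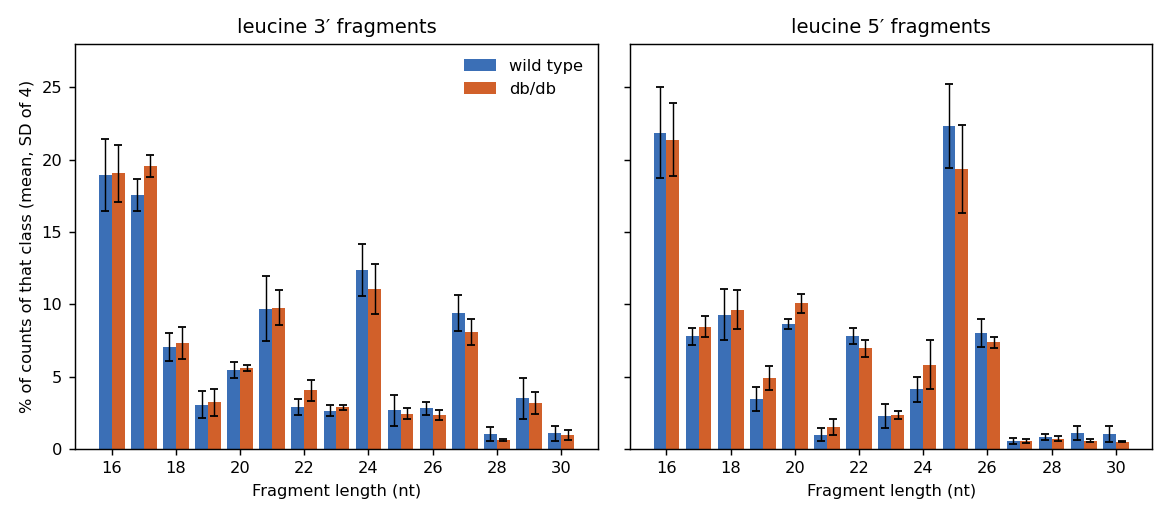
Percentage of leucine 3′ counts (left) and 5′ counts with the second form of Leu-AAG included (right) at each length from 16 to 30 nt, as the mean and SD of 4 libraries, wild type in blue and db/db in orange. The 3′ side peaks at 16, 17 and 24 nt, the 5′ side at 16 and 25 nt, and the error bars of the genotypes overlap at these lengths except at 17 nt on the 3′ side (17.6% ± 1.13 in wild type, 19.6% ± 0.736 in db/db).

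The internal fragments included pieces of the variable arm. Without the ends short of CCA there were 57 internal sequences, of which 37 were tested and 0 called by edgeR, beside 40 of 502 for all tRNAs (7.97%). Of the 37, 5 had an unadjusted p below 0.05 (edgeR), beside 71 of the 502. DESeq2 called 2, both of them 5′ fragments of the second form of Leu-AAG. In Leu-AAG an abundant one was tcttcgggggcgtgggt, at 16.2 to 62.1 CPM in wild type and 25 to 61.4 CPM in db/db, with a log2 fold change of 0.09 (SE 0.487; edgeR, adjusted p = 0.934). Under the name Leu-CAA 3 forms of this arm were listed, shown here at 18 nt with the varying bases in capitals.
Leu-CAA, form 1: CcGAAtggaggcgtgggt
Leu-CAA, form 2: CcGTAtggaggcgtgggt
Leu-CAA, form 3: TcCCCtggaggcgtgggt
Forms 1, 2 and 3 had wild type means of 23 ± 10.4, 10.5 ± 5.90 and 25.8 ± 18.9 CPM and db/db means of 19.5 ± 6.75, 16.4 ± 2.25 and 21.8 ± 6.90 CPM (SD, n = 4 per genotype). None was called, and the wild type ranges of the forms overlapped. Form 3 also lies whole within a sequence of 30 nt that the table names Leu-CAG, so the name alone does not tell these tRNAs apart here. The bases tggaggcgtgggt, on the strand given, were in 14 of 54 leucine internal fragments, with the second 5′ form set apart, and in 0 of 894 of other tRNAs, or 1.48% of all internal fragments. This is the stretch shared by the 3 forms printed above, which are counted among the 14, so nothing is read from the contrast. In these libraries, made from pooled cells, fewer cells of a kind and less RNA per cell cannot be told apart.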

How the data were processed

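Total RNA of sorted β-cells had been turned into libraries with the QIAseq miRNA kit, which tags molecules with unique identifiers. Per the methods of the study, reads over 16 nt were collapsed where sequence and identifier agreed, then aligned to the genome build GRCm38.p6 and matched without mismatches to mature and mitochondrial tRNAs. The authors' deposited table gives for each sequence and library the authors' count of unique molecules, the authors' RPM rounded to a whole number (used here as a score, for implied library totals), and a normalised log2 value by the authors (how it was made: not given in the sources used here). A column with the authors' direction of change was not used. A further allele in the strain names is not reported here. Groups were taken from the genotype labels through the library names. Replicate numbers were given in label order, and the labels name no batch and no pairing.

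All 2226 sequences entered edgeR 4.0.16 (R 4.3.3), whose quasi-likelihood test was run on genotype, after TMM scaling of tRF counts and a filter (filterByExpr, count 10, total 15), and p-values were adjusted by Benjamini-Hochberg over all features of a table. A call needed an adjusted p below 0.1 and a fold change above 2. CPM are relative to TMM-scaled tRF totals, and CPM of families were scaled over families. Standard errors were derived from the F statistics. The 5′ start was the commonest 8-base beginning of an isoacceptor, found in 5 or more sequences. An end short of CCA was placed where 12 or more bases overlapped a CCA fragment of that isoacceptor. The exact permutation tests of shares ran over all 70 ways to assign the libraries, and their p-values were adjusted over 9 tests (Benjamini-Hochberg, threshold 0.05). In all 12 pairs of libraries of a genotype the leucine counts differed by more than counting error. The procedure was tested on simulated data.

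The members, lists and rules were chosen with earlier results of these data known. The alternatives were RLE factors, no factor, implied totals, sizes from the deposited log2 values, DESeq2 1.42.0, a likelihood-ratio test, other filters and thresholds, merging of sequences 1 or 2 nt apart, a tolerant rule for ends and leaving out each library. The second form of Leu-AAG, its shares, the second 5′ start and further alternatives for ends short of CCA were chosen after seeing the data. Named were all leucine families, the most abundant sequence of each anticodon and kind, up to 10 called sequences per direction, and the pairs with complete and short 3′ ends. Sequences of 25 nt and 24 nt and variable arm forms were added after their values had been seen.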

Additional observations from a re-analysis of the deposited data

Results flagged for a closer look

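Among 164 sets of 4 values from a genotype, 11 held 1 value that stood far off, where chance gives about 1 in 20. Wild type 4 had 35139 leucine counts, against 13105 to 15731 in the other wild type libraries. In db/db 3 the 3′ share of leucine counts was 73.8% and the 5′ share 22.7%, against 57.7% to 59.3% and 34.6% to 35.1% in the other db/db libraries. With all 5′ starts its 5′ share was 24%, against 37.0% to 37.5%. Also in db/db 3, the common Leu-AAG 3′ fragment of 17 nt stood at 2161 CPM, against 1196 to 1271, and the second form of 21 nt at 136 CPM, against 58.9 to 63.2. The Leu-AAG 5′ family was high in db/db 2, at 5434 CPM against 4129 to 4232. In wild type, the Leu-CAA 5′ family was high in library 3 (531 CPM against 403 to 424), as was the 5′ share of serine counts (3.53% against 1.98% to 2.08%). The second form of Leu-AAG at 17 nt was high in wild type 4 (44.8 CPM against 23.5 to 24.9), and still below the db/db libraries. The Leu-CAG 5′ fragment of 29 nt was low in wild type 1 (14.2 CPM against 35.2 to 38.6).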

How the results depend on the processing

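No paired analysis was possible because no replicate number in the labels links a db/db library to a wild type one. The 18 called leucine sequences became 6 with sizes from the deposited log2 values and 9 of 56 after merging, and 15 to 25 when a library was left out, with 25, 15 of them higher, without wild type 3. The 1 called leucine family became 3 with implied totals (gaining Leu-CAA internal at −1.10 and Leu-TAG 5′ at −1.11) and 0 with the tolerant rule, and with ends short of CCA apart 4 to 5 were called when a library was left out. The median of all families was −0.58 with implied totals. The 5 tested sequences short of CCA were called in every alternative that could test them. The 9 higher sequences had log2 fold changes of 1.29 or more (to 2 decimals) in the alternatives that tested them. Without the most abundant leucine sequence, the difference of the second form's 3′ share was 6.69 points in place of 5.51, and that of the leucine share of tRF counts was −0.019 in place of 0.011. Leaving out a library gave −0.119 to 0.165 points for the latter, 5.82 to 14.4 for the 3′ share, 1.28 to 4.01 for 16 to 19 nt, −3.35 to −2.76 for ends short of CCA, −1.50 to 5.71 for Leu-AAG, −1.10 to 2.32 for Leu-CAA, −3.15 to 0.0117 for Leu-CAG, −0.53 to 0.254 for Leu-TAA and −1.57 to −0.707 for Leu-TAG.

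Values that turned sign were all uncalled. With sizes from the deposited log2 values they were, for Leu-CAA and Leu-CAG 3′ at 17 nt, −0.24 and −0.020, for Leu-TAA internal at 17 nt −0.081, and for the families Leu-AAG internal −0.43, Leu-CAA 3′ −0.39 and Leu-CAG 3′ −0.23. With implied totals they were −0.18 for Leu-CAA 3′ at 17 nt and, for families, −0.032 for Leu-AAG 3′, −0.29 for Leu-AAG internal, −0.30 for Leu-CAA 3′ and −0.17 for Leu-CAG 3′. The medians of all families were −0.67 and −0.58 under these scalings, in that order. With RLE factors or DESeq2 Leu-TAA 3′ was 0.066 or 0.065. The common Leu-AAG 3′ fragment of 24 nt was 0.013 with the 10-count filter, 0.0095 with no filter, 0.054 after merging and 0.0048 with no factor, where the Leu-AAG and Leu-CAA totals were 0.054 and 0.060. With the second 5′ start Leu-AAG internal was −0.40, and with the tolerant rule Leu-CAA and Leu-TAA internal were 0.083 and 0.85. Causes were not tested. Leaving out a library turned the sign of these uncalled values: the common Leu-AAG 3′ fragments of 16 nt (−0.040 to 0.46) and 24 nt (−0.26 to 0.13), Leu-AAG 5′ (−0.45 to 0.020), Leu-AAG internal (−0.038 to 0.38), Leu-TAA 3′ (−0.25 to 0.39), Leu-TAA internal (−0.54 to 0.13) and the totals of Leu-AAG (−0.22 to 0.12), Leu-CAA (−0.14 to 0.076) and Leu-TAA (−0.40 to 0.18).

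Placement of ends against tRNA gene sequences was not run, since none were used here. No sequence had more than 1 name, and serine gave no share short of CCA, so these alternatives gave no value. Depth limited the 28 untested sequences.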
